A study of Mus musculus with 13 samples.

Results

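Bone morphogenetic proteins (BMPs) are secreted dimers of the TGF-beta superfamily, and 10 mouse genes of their signalling path were followed here by name: the ligands Bmp2, Bmp4, Bmp5, Bmp6 and Bmp7, the receptors Bmpr1a, Bmpr1b and Bmpr2, and the target genes Id1 and Id3. All 10 were found among the 23418 genes of the deposited table, and all 10 had enough reads to be tested. The study looked for transcripts of muscle FAPs that could drive the differentiation of satellite cells, the resident stem cells of muscle, and read bulk RNA of 13 mouse samples. The groups are muscle FAPs (4 libraries, numbered 2 to 5), lung FAPs (5 libraries, numbered 1 to 5) and MEFs (4 libraries, numbered 1 to 4). FAP commonly stands for fibro/adipogenic progenitor, a mesenchymal cell of the tissue stroma, and MEF for mouse embryonic fibroblast. The labels give only the cell type and, for FAPs, the tissue, with no genotype, strain, sex, age, treatment, sort or culture step for any group. Nothing says whether the libraries of a group are from different animals or cultures, so p-values speak only of the spread among these 13 samples, and that spread may be technical.

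A BMP dimer brings together type I receptors, among them Bmpr1a and Bmpr1b, and type II receptors such as Bmpr2. The activated type I receptor phosphorylates the transcription factors SMAD1, SMAD5 and SMAD9, which enter the nucleus with SMAD4. Id1 and Id3 are direct targets: their proteins lack a DNA-binding part and hold back basic helix-loop-helix factors, including those that drive muscle differentiation. The same signal raises its own inhibitors Smad6 and Smad7, while secreted antagonists bind the ligands outside the cell. In skeletal muscle BMP signals are known to keep muscle progenitors dividing and to sustain fibre mass, and in lung Bmp4 is known from branching of the embryonic airways.

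Depth was 41327292 to 44699463 counts per muscle FAP library, 28636183 to 35464622 per lung FAP library and 33756915 to 41466585 per MEF library. The FAP markers Pdgfra, Ly6a and Cd34 summed to 3614 to 3914 CPM for muscle FAPs, 2589.7 to 4065 for lung FAPs and 113 to 159 for MEFs. CPM (counts scaled to a common library total) are given throughout after TMM scaling between libraries. Lung FAP 2 stood apart in 8 endothelial markers, which summed to 765 CPM there and to 55.7 to 253 in the other lung FAPs, and lung FAP 3 in 5 epithelial markers, at 7780.3 against 15.1 to 88.6 CPM. In muscle FAPs the endothelial sum was 4.16 to 12.5 CPM, with Cldn5 at 0 in muscle FAP 4 and 5 and Emcn at 0 in muscle FAP 4, and the blood cell sum 0.320 to 1.02 CPM. MEFs held 82.2 to 369 CPM of 4 blood cell markers. Mesothelial markers summed to 1.15 to 27.0 CPM for muscle FAPs, 361 to 856 for lung FAPs and 102 to 135 for MEFs, and 5 of 5 were lower in muscle than in lung FAPs; their part in the results below was not tested. Xist was at 87.2 and 99.5 CPM in MEF 2 and 4 and at 0.121 and 0.0227 in MEF 1 and 3. Ddx3y was at 69.8, 0.0637, 43.1 and 37.5 CPM in MEF 1 to 4, so MEF 4 held both. In FAPs Xist reached at most 0.591 CPM, and Ddx3y ran from 124 to 253 CPM. The part of sex in the results below, among them the comparisons with MEFs, was not tested.

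FAPs of both tissues carried more transcript than MEFs of each of the 5 ligands among the members. Muscle FAPs carried more than lung FAPs of each of these other than Bmp7. A gene counts as higher or lower here at a Benjamini-Hochberg adjusted p under 0.05 in edgeR's quasi-likelihood test over all 15412 genes tested, with no minimum fold. In muscle FAPs against lung FAPs 5 of the 10 genes were higher (Bmp2, Bmp4, Bmp5, Bmp6 and Bmpr2), 0 were lower and 5 did not pass, where 48.2% of all genes tested passed in either direction, 23.2% higher and 25% lower. The libraries of both groups did not overlap for the same 5 genes, beside 37.9% of all genes. When scaled by library size alone the split was 5 higher and 3 lower, with Bmp7, Bmpr1a and Bmpr1b as the lower genes. Against MEFs all 10 passed in muscle FAPs, 8 higher and 2 lower (Bmpr1b and Id1), beside 73.5% of all genes tested (36.1% higher and 37.3% lower). None of the 10 overlapped between those groups, and neither did 73.9% of all genes. In lung FAPs against MEFs 9 passed, 7 higher and the same Bmpr1b and Id1 lower, beside 74.4% of all genes tested (37.8% higher and 36.6% lower), and 8 did not overlap, beside 65.3%. Passing a test was thus common in each comparison, and the share of members called in muscle FAPs against lung FAPs was near that of all genes. The comparisons against MEFs share the MEF libraries.

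**Figure D1:**
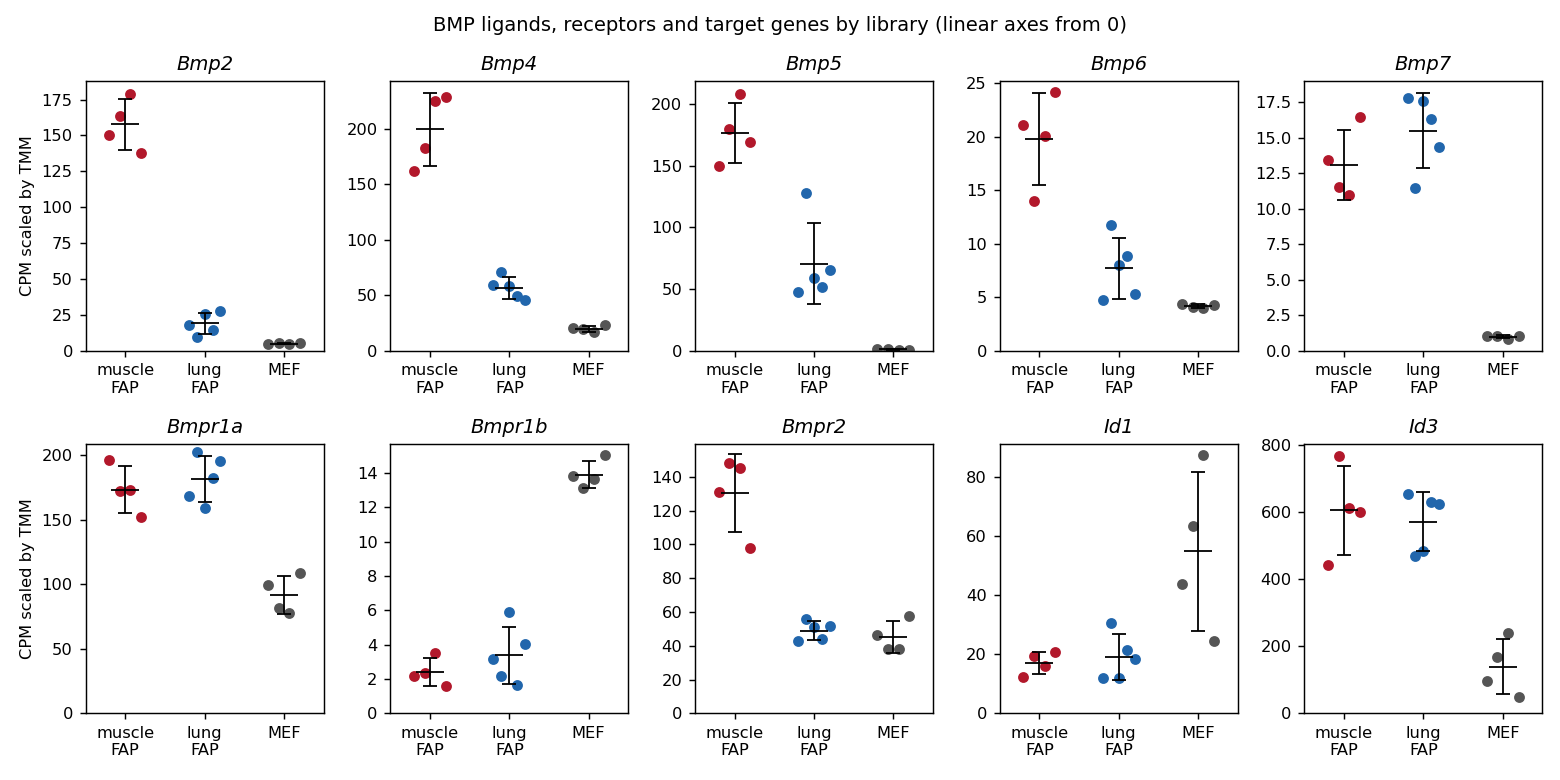
CPM scaled by TMM (y axis, linear from 0) of each of the 10 BMP genes in the libraries of muscle FAPs, lung FAPs and MEFs. Points are libraries, and black bars are the mean and SD. Bmp2 spans 138 to 179 CPM in muscle FAPs, above every library of the other groups, while Id1 is spread widest in MEFs.

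Bmp2, a ligand that induces bone and cartilage and acts early in limb and heart formation (mm10, chr2:133552159-133562885, plus strand), stood at 150.5, 164, 179 and 138 CPM in muscle FAP 2 to 5, at 18.0, 9.67, 25.3, 14.4 and 27.7 CPM in lung FAP 1 to 5 and at 4.75, 5.07, 4.43 and 5.49 CPM in MEF 1 to 4. The 3 groups did not overlap, and muscle FAPs were highest and MEFs lowest. The mean in muscle FAPs was 8.29-fold that of lung FAPs (log2 fold change 3.05 with SE 0.29, edgeR adjusted p = 2.08e-07) and 31.9-fold that of MEFs (log2 fold change 4.997 with SE 0.10, edgeR adjusted p = 1.14e-09). Lung FAPs were 3.85-fold above MEFs (log2 fold change 1.94 with SE 0.28, edgeR adjusted p = 6.05e-06). Among lung FAPs Bmp2 was lowest in lung FAP 2 and 4, at 9.67 and 14.4 CPM, the same libraries that held the least of 8 immediate-early genes, 5962 and 7298 CPM against 12414 to 16363 in the other lung FAPs. Tenocyte markers moved with Bmp2 between the FAPs, where 4 of 4 were higher in muscle than in lung. Against MEFs 2 were higher and 2 lower in muscle FAPs, and 1 higher (Thbs4) and 3 lower in lung FAPs. The sums, in which Thbs4 was the largest part in FAPs of both tissues, were 851 to 1642 CPM for muscle FAPs, 7.82 to 58.2 for lung FAPs and 39.5 to 42.3 for MEFs. Within muscle FAPs, Bmp2 was highest in muscle FAP 4, where the tenocyte sum was lowest, at 851 CPM. The part of either set of genes in the Bmp2 difference was not tested, and in bulk RNA fewer cells of a type and less RNA per cell cannot be told apart.

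Bmp4, a ligand of mesoderm and of lung and limb mesenchyme (mm10, chr14:46383520-46390669, minus strand), stood at 162, 183, 225 and 229 CPM in muscle FAP 2 to 5, at 59.0, 70.8, 58.4, 49.4 and 45.9 CPM in lung FAP 1 to 5 and at 20.2, 19.7, 16.4 and 23.2 CPM in MEF 1 to 4. Here too the groups did not overlap and ran from muscle FAPs to lung FAPs to MEFs. Bmp4 was 3.52-fold above lung FAPs in muscle FAPs (log2 fold change 1.82 with SE 0.16, edgeR adjusted p = 1.30e-07) and 10.03-fold above MEFs (log2 fold change 3.33 with SE 0.16, edgeR adjusted p = 9.46e-11). In lung FAPs it was 2.85-fold above MEFs (log2 fold change 1.51 with SE 0.15, edgeR adjusted p = 2.25e-07).

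Bmp5, a ligand of skeletal patterning whose loss gives the short-ear mouse (mm10, chr9:75775364-75900310, plus strand), stood at 149, 179.6, 208 and 169.6 CPM in muscle FAP 2 to 5, at 47.9, 128, 59.3, 51.4 and 65.8 CPM in lung FAP 1 to 5 and at 1.09, 1.25, 0.909 and 0.819 CPM in MEF 1 to 4. Every FAP library was far above every MEF library, and muscle FAPs did not overlap lung FAPs. The difference from MEFs was 173-fold in muscle FAPs (log2 fold change 7.44 with SE 0.16, edgeR adjusted p = 1.72e-10) and 69.1-fold in lung FAPs (log2 fold change 6.11 with SE 0.28, edgeR adjusted p = 6.77e-10), the largest of the 10 genes in either comparison. Between the FAPs it was 2.51-fold higher in muscle (log2 fold change 1.33 with SE 0.27, edgeR adjusted p = 0.000455). Lung FAP 2 held 128 CPM, nearer to the lowest muscle FAP than to the other lung FAPs, and it was also the lung library with the most endothelial and the most pericyte and smooth muscle transcript (1800.0 CPM over 8 markers against 238 to 1174). Without lung FAP 2 the log2 fold change of muscle FAPs against lung FAPs was 1.67 (edgeR adjusted p = 2.56e-07). In muscle FAPs, where Bmp5 was highest, the 8 endothelial markers summed to 4.16 to 12.5 CPM, with Kdr as the largest at 1.81, 6.27, 1.90 and 8.74 CPM in muscle FAP 2 to 5, and the 8 pericyte and smooth muscle markers to 75.0 to 84.7 CPM. The part of either set in the Bmp5 level was not tested.

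The 250 bases before the transcription start of Bmp4 and Bmp5 are shown because these ligands were among the most abundant in FAPs and rose together over MEFs from starts of unlike base composition. They come from RefSeq on GRCm38.p6, run 5′ to 3′ on the strand of the gene and end just before the RefSeq start, at chr14:46390670-46390919 for Bmp4 and chr9:75775115-75775364 for Bmp5. Capitals mark matches on either strand to any of 6 motifs: GGCGCC, bound by SMAD1 and SMAD5, the SMAD element CAGAC, the GC box GGGCGG, the CCAAT box CCAAT, the TATA box TATAAA and the cyclic AMP element TGACGTCA.
Bmp4: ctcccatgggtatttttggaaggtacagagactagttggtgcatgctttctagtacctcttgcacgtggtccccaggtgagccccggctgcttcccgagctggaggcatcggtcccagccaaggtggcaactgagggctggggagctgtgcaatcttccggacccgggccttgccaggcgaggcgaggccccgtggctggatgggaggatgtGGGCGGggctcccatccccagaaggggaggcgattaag
Bmp5: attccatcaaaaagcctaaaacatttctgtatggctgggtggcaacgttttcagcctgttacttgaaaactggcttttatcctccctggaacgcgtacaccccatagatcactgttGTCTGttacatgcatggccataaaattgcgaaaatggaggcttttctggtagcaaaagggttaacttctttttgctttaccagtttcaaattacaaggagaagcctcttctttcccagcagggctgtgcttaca
The Bmp4 stretch holds 63.2% G and C and the Bmp5 stretch 42.8%, beside a median of 52.4% over all 32851 windows of that length. Bmp4 has 1 GC box, a motif found in 32.7% of all windows, and Bmp5 has 1 SMAD element, found in 42.2%. Neither stretch holds GGCGCC, which 9.59% of windows do, nor the other 3 motifs, present in 12.4% (TATAAA), 33.8% (CCAAT) and 1.55% (TGACGTCA). These motifs do not overlap each other in the stretches shown. Of the 10 genes, 7 had such a window, and Bmp2, Bmp7 and Id1 had none.

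Among the 5 ligands of the members, Bmp6 and Bmp7 were the scarcer in FAPs and differed from each other in pattern. Bmp6, known as the BMP of iron control in liver (mm10, chr13:38345107-38500302, plus strand), stood at 21.1, 14.0, 20.1 and 24.2 CPM in muscle FAP 2 to 5, at 4.73, 11.7, 7.97, 8.87 and 5.26 CPM in lung FAP 1 to 5 and at 4.41, 4.10, 3.998 and 4.30 CPM in MEF 1 to 4. Its groups kept the order of muscle FAPs, lung FAPs and MEFs without overlap, although the lowest lung FAP was close to the highest MEF. Muscle FAPs were 2.57-fold above lung FAPs (log2 fold change 1.36 with SE 0.29, edgeR adjusted p = 0.000217) and 4.72-fold above MEFs (log2 fold change 2.24 with SE 0.17, edgeR adjusted p = 1.32e-06), and lung FAPs 1.84-fold above MEFs (log2 fold change 0.88 with SE 0.24, edgeR adjusted p = 0.00401). As with Bmp5 the highest lung library was lung FAP 2. Without lung FAP 2 and 3, a setting chosen after seeing the data, the last value was 0.57 (edgeR adjusted p = 0.0327).

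Bmp7, a ligand of kidney and eye formation (mm10, chr2:172868012-172940321, minus strand), stood at 13.4, 11.5, 11.0 and 16.4 CPM in muscle FAP 2 to 5, at 17.8, 11.5, 17.6, 16.3 and 14.4 CPM in lung FAP 1 to 5 and at 1.04, 1.06, 0.840 and 1.004 CPM in MEF 1 to 4. Among the 5 ligands only Bmp7 overlapped between the FAP groups (log2 fold change −0.24 with SE 0.18, edgeR adjusted p = 0.228). With limma-voom and sample weights the value was −0.36 (adjusted p = 0.0366), and when scaled by library size alone −0.64 (edgeR adjusted p = 0.00321). Both FAP groups lay far above MEFs, 13.2-fold in muscle FAPs (log2 fold change 3.72 with SE 0.15, edgeR adjusted p = 1.80e-10) and 15.7-fold in lung FAPs (log2 fold change 3.97 with SE 0.14, edgeR adjusted p = 7.16e-11).

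**Figure D2:**
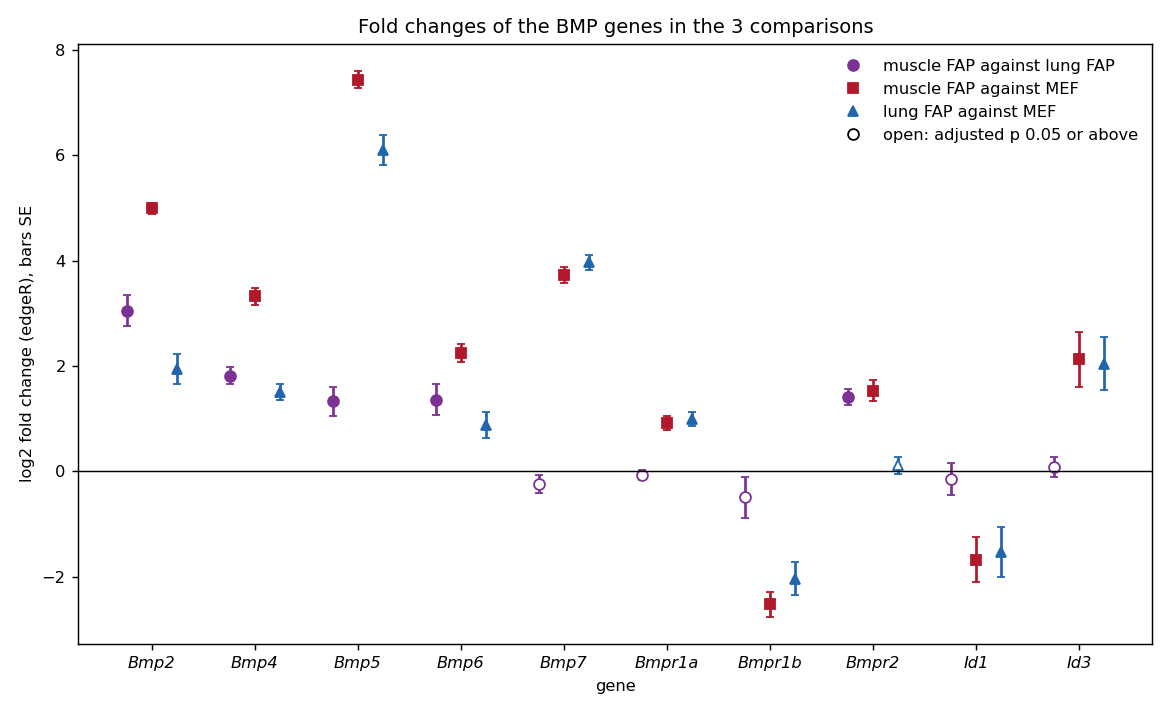
Log2 fold changes from edgeR (y axis) of the 10 genes (x axis) for muscle FAPs against lung FAPs, muscle FAPs against MEFs and lung FAPs against MEFs, with SE bars. Open symbols have an adjusted p of 0.05 or above. The 5 ligands are above 0 in both comparisons with MEFs, and Bmp5 in muscle FAPs is farthest from 0, at 7.44.

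To set the 5 ligands among the members beside each other, levels were divided by the length of the annotated exons of each gene (CPM per kb). In muscle FAPs Bmp4 led with 88.8 ± 14.5 CPM per kb (SD, n = 4), and Bmp2 with 44.4 ± 5.02 and Bmp5 with 43.9 ± 6.08 followed and could not be told apart by their spread. Bmp6, at 5.09 ± 1.10, and Bmp7, at 3.25 ± 0.612, came last and overlapped. In lung FAPs Bmp4 (25.2 ± 4.32 CPM per kb, n = 5) and Bmp5 (17.5 ± 8.18) overlapped at the top, ahead of Bmp2 (5.35 ± 2.11), which overlapped Bmp7 (3.85 ± 0.655), and Bmp6 (1.98 ± 0.730) was last and overlapped Bmp7. In MEFs Bmp4 (8.85 ± 1.23 CPM per kb, n = 4) stood clear of Bmp2 (1.39 ± 0.128) and Bmp6 (1.08 ± 0.0483), and Bmp5 (0.253 ± 0.0479) and Bmp7 (0.246 ± 0.0250) were last and overlapped. With the longest coding transcript as the length, Bmp2 and Bmp5 in muscle FAPs, and Bmp5 and Bmp7 in MEFs, changed places and no other order of ligands did.

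Taken as a pool, the 5 ligands among the members differed in makeup as well as in size. Ligands of the pathway list were not counted in it, so the shares hold only among these 5. Gdf10, left out, was at 354 CPM in muscle FAPs and 308 CPM in lung FAPs, and Gdf6 at 27.3 CPM in MEFs. Summed per length, the 5 ligands reached 185 ± 21.2 CPM per kb for muscle FAPs, 53.9 ± 10.6 for lung FAPs and 11.8 ± 1.39 for MEFs (SD), without overlap between groups. Bmp4 made up 44.9 to 52.8% of that sum for muscle FAPs, 41.2 to 53.7% for lung FAPs and 73.0 to 76.9% for MEFs. The share of Bmp2 was 20.1 to 26.4% for muscle FAPs, 3.79 to 15.7% for lung FAPs and 11.1 to 12.4% for MEFs. Muscle FAPs thus held a larger share of Bmp2 than any library of the other groups, and MEFs a larger share of Bmp4. Bmp5 took 21.8 to 25.0% for muscle FAPs, 24.3 to 44.3% for lung FAPs and 1.52 to 2.63% for MEFs, with the highest share in lung FAP 2.

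**Figure D3:**
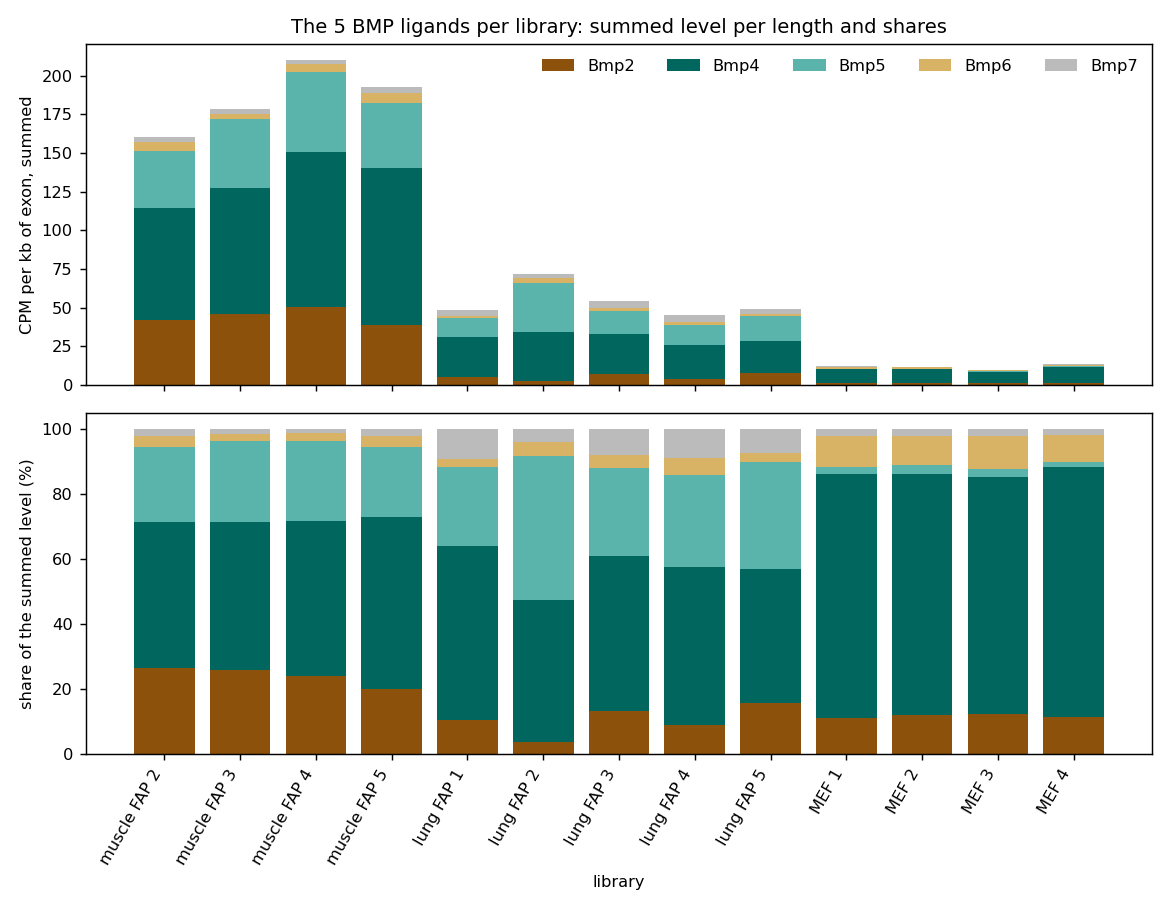
The 5 BMP ligands in each library (x axis), stacked as CPM per kb of exon (upper panel, y axis from 0) and as a share of their sum in percent (lower panel). The sums run from 160.2 to 210.0 CPM per kb in muscle FAPs over 45.1 to 71.9 in lung FAPs to 10.02 to 13.4 in MEFs.

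Each receptor had its own pattern over the groups. Bmpr1a, a broadly expressed type I receptor (mm10, chr14:34410734-34503341, minus strand), stood at 196, 172, 173 and 152 CPM in muscle FAP 2 to 5, at 168, 203, 159, 182 and 196 CPM in lung FAP 1 to 5 and at 99.1, 81.6, 77.5 and 109 CPM in MEF 1 to 4. The FAP groups overlapped (log2 fold change −0.067 with SE 0.099, edgeR adjusted p = 0.67) and both lay above MEFs, 1.89-fold in muscle FAPs (log2 fold change 0.92 with SE 0.14, edgeR adjusted p = 8.54e-06) and 1.98-fold in lung FAPs (log2 fold change 0.99 with SE 0.13, edgeR adjusted p = 2.52e-06). Scaling by library size alone gave 0.34 for muscle FAPs against MEFs (0.0397 as the edgeR adjusted p) and −0.48 for muscle FAPs against lung FAPs (adjusted p = 0.00651).

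Bmpr1b, a type I receptor of limb cartilage (mm10, chr3:141837136-142169425, minus strand), ran the other way. It stood at 2.15, 2.34, 3.51 and 1.62 CPM in muscle FAP 2 to 5, at 3.15, 2.17, 5.89, 1.66 and 4.03 CPM in lung FAP 1 to 5 and at 13.8, 13.1, 13.7 and 15.0 CPM in MEF 1 to 4. Each FAP library was below each MEF library, 5.78-fold lower in muscle FAPs (log2 fold change −2.53 with SE 0.23, edgeR adjusted p = 7.04e-06) and 4.11-fold lower in lung FAPs (log2 fold change −2.04 with SE 0.32, edgeR adjusted p = 2.30e-05). Between the FAPs the libraries overlapped (log2 fold change −0.49 with SE 0.39, edgeR adjusted p = 0.216), and the value scaled by library size alone was −0.89 (edgeR adjusted p = 0.0204). Of the summed CPM of Bmpr1a and Bmpr1b, Bmpr1b took 1.05 to 1.99% for muscle FAPs, 0.902 to 3.56% for lung FAPs and 12.1 to 15.0% for MEFs. Type I receptors of the pathway list, such as Acvrl1, were not counted in that share.

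Bmpr2, the type II receptor mutated in hereditary pulmonary arterial hypertension in humans (mm10, chr1:59763400-59879014, plus strand), differed between the FAPs. With TMM scaling it was the 1 receptor among the members that passed there. It stood at 131, 148, 145 and 97.8 CPM in muscle FAP 2 to 5, at 42.6, 55.9, 50.9, 44.2 and 51.5 CPM in lung FAP 1 to 5 and at 46.6, 37.9, 38.4 and 57.9 CPM in MEF 1 to 4. Muscle FAPs stood above all other libraries, and lung FAPs overlapped MEFs. Muscle FAPs held 2.66 times the Bmpr2 of lung FAPs (log2 fold change 1.41 with SE 0.16, edgeR adjusted p = 2.36e-06) and 2.89 times that of MEFs (log2 fold change 1.53 with SE 0.20, edgeR adjusted p = 4.19e-07; 0.95 when scaled by library size alone). Lung FAPs against MEFs did not pass (log2 fold change 0.12 with SE 0.16, edgeR adjusted p = 0.483), and the value was −0.048 with library size alone. The ratio of Bmpr2 to Bmpr1a CPM was 0.642 to 0.861 for muscle FAPs, 0.242 to 0.319 for lung FAPs and 0.464 to 0.532 for MEFs, without overlap between muscle FAPs and either other group.

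The 3 receptors among the members were set beside each other per length, without the other receptors of the pathway list. Of these 3, Bmpr1a led in every group, with 27.3 ± 2.84 CPM per kb for muscle FAPs, 28.6 ± 2.85 for lung FAPs and 14.4 ± 2.33 for MEFs (SD). Bmpr2 came second, with 7.26 ± 1.29 for muscle FAPs, 2.73 ± 0.306 for lung FAPs and 2.51 ± 0.522 for MEFs. Bmpr1b was last, at 0.403 ± 0.134 for muscle FAPs, 0.567 ± 0.281 for lung FAPs and 2.33 ± 0.135 for MEFs, where its libraries overlapped those of Bmpr2.

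The target genes differed from each other, with Id3 higher in FAPs than in MEFs, as were the 5 ligands among the members, and Id1 lower. Id1, whose protein is known from stem cells and blood vessel growth (mm10, chr2:152736251-152737410, plus strand), stood at 12.3, 19.3, 16.1 and 20.6 CPM in muscle FAP 2 to 5, at 12.1, 30.7, 11.9, 21.5 and 18.5 CPM in lung FAP 1 to 5 and at 43.6, 63.4, 87.4 and 24.6 CPM in MEF 1 to 4. Muscle FAPs lay below every MEF, and lung FAP 2 overlapped the lowest MEF. Id1 was 3.21-fold lower in muscle FAPs than in MEFs (log2 fold change −1.68 with SE 0.43, edgeR adjusted p = 0.00117) and 2.89-fold lower in lung FAPs than in MEFs (log2 fold change −1.53 with SE 0.47, edgeR adjusted p = 0.00129). Muscle FAPs against lung FAPs did not pass (log2 fold change −0.15 with SE 0.31, edgeR adjusted p = 0.758; 0.11 without lung FAP 2).

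Id3, which acts with Id1 in blood vessels of the embryonic brain (mm10, chr4:136143497-136145755, plus strand), stood at 443, 768, 613 and 599.9 CPM in muscle FAP 2 to 5, at 654, 469, 484, 629 and 623 CPM in lung FAP 1 to 5 and at 97.6, 169, 239 and 50.3 CPM in MEF 1 to 4. Every FAP library was above every MEF library, so Id3 and Id1 differed from MEFs in opposite directions. Id3 was 4.37-fold above MEFs in muscle FAPs (log2 fold change 2.13 with SE 0.52, edgeR adjusted p = 0.000121) and 4.12-fold above them in lung FAPs (log2 fold change 2.04 with SE 0.50, edgeR adjusted p = 0.000125). The FAPs did not differ past the threshold (log2 fold change 0.083 with SE 0.19, edgeR adjusted p = 0.859), and the sign of that value turned to −0.32 with library size alone and to −0.055 without muscle FAP 3. Per length, Id3 reached 338 ± 74.2 CPM per kb and Id1 14.7 ± 3.18 in muscle FAPs, and 319 ± 49.1 and 16.3 ± 6.70 in lung FAPs, while in MEFs they overlapped, at 77.5 ± 46.0 and 47.2 ± 23.2 (SD). The ratio of Id3 to Id1 CPM was 29.1 to 39.8 for muscle FAPs, 15.3 to 54.2 for lung FAPs and 2.04 to 2.73 for MEFs.

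Immediate-early genes moved with Id3 between FAPs and MEFs. All 8 of the list were higher in muscle FAPs and in lung FAPs than in MEFs, with sums of 13864 to 17439.5 CPM for muscle FAPs, 5962 to 16363 for lung FAPs and 432 to 691 for MEFs. Within lung FAPs, lung FAP 1 was highest and lung FAP 2 lowest in both Id3 and that sum, with 16363 and 5962 CPM of the sum. Lung FAP 4, second highest in Id3, was second lowest in the sum, at 7298 CPM. Within muscle FAPs, muscle FAP 3 was highest in both. Their part in the difference from MEFs was not tested. Endothelial transcript moved with Id1 in lung FAPs, where both were highest in lung FAP 2 and second in lung FAP 4, at 30.7 and 21.5 CPM of Id1 and 765 and 253 CPM of the 8 endothelial markers. Of the 51 pathway genes looked at, 1 had the same order of lung libraries as Id1 and 1 the reverse (Nbl1). The first was Smad6, at 9.74, 18.7, 8.42, 13.7 and 12.6 CPM in lung FAP 1 to 5, an order found in 1.06% of all genes tested and in 1.96% of the pathway list.

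The MEF libraries differed more among themselves in Id1 and Id3 than in the 5 ligands of the members. Id1 and Id3 both ran in the order MEF 3, 2, 1 and 4, and MEF 3 held 3.54 times the Id1 and 4.74 times the Id3 of MEF 4. This order was seen in 17.7% of all genes tested, and a ratio of MEF 3 to MEF 4 of at least 3 in 1.76%. Of the 10 other targets fixed in the list of the pathway, 6 had the same order (Id2, Id4, Msx2, Hey1, Atoh8 and Dlx5), with a median ratio of 2.07 over the 10 against 1.03 over all genes. Of 10 transducers and intracellular inhibitors, Smad6, Smad7 and Smad9 had it. The genes given next were chosen after their values were seen. Smad6, the inhibitory SMAD, stood at 16.3, 25.7, 35.4 and 10.3 CPM in MEF 1 to 4. Atoh8, a helix-loop-helix factor, stood at 7.22, 16.2, 23.2 and 1.95 CPM and Id2 at 64.3, 101, 114 and 42.7 CPM in the same libraries.

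The 5 ligands and 3 receptors among the members did not share the high level of MEF 3, which held 0.662 to 1.11 times their level in MEF 4. In the pathway list 2 of 8 other ligands and 2 of 9 other receptors had the order of Id1, beside 17.7% of all genes. Among these, MEF 3 was at 1.74 times MEF 4 for Bmp8a, 4.23 for Bmp8b, 1.91 for Acvrl1 and 1.81 for Eng. Bmp4 and Bmpr1a ran in the reverse order, which was seen in 12.5% of all genes tested. In the pathway list 3 genes had it, Smad1, Runx2 and 1 of those 9 receptors. Xist was high in MEF 2 and 4, with Ddx3y at 0.0637 CPM in MEF 2 and 37.5 CPM in MEF 4. The part of sex in the spread of Id1 and Id3 was not tested. Of the 8 pericyte and smooth muscle markers, Acta2 ran in the order of Id1, at 2234, 2552, 3353 and 1855 CPM in MEF 1 to 4, and so did their sum, most of which was Acta2, while the other 7 did not have that order. The blood cell markers were lowest in MEF 3, with a sum of 82.2 CPM against 231 to 369 in the other MEFs. Their part in the spread of Id1 and Id3 was not tested. The order of 4 libraries is given as a description, with no test.

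**Figure D4:**
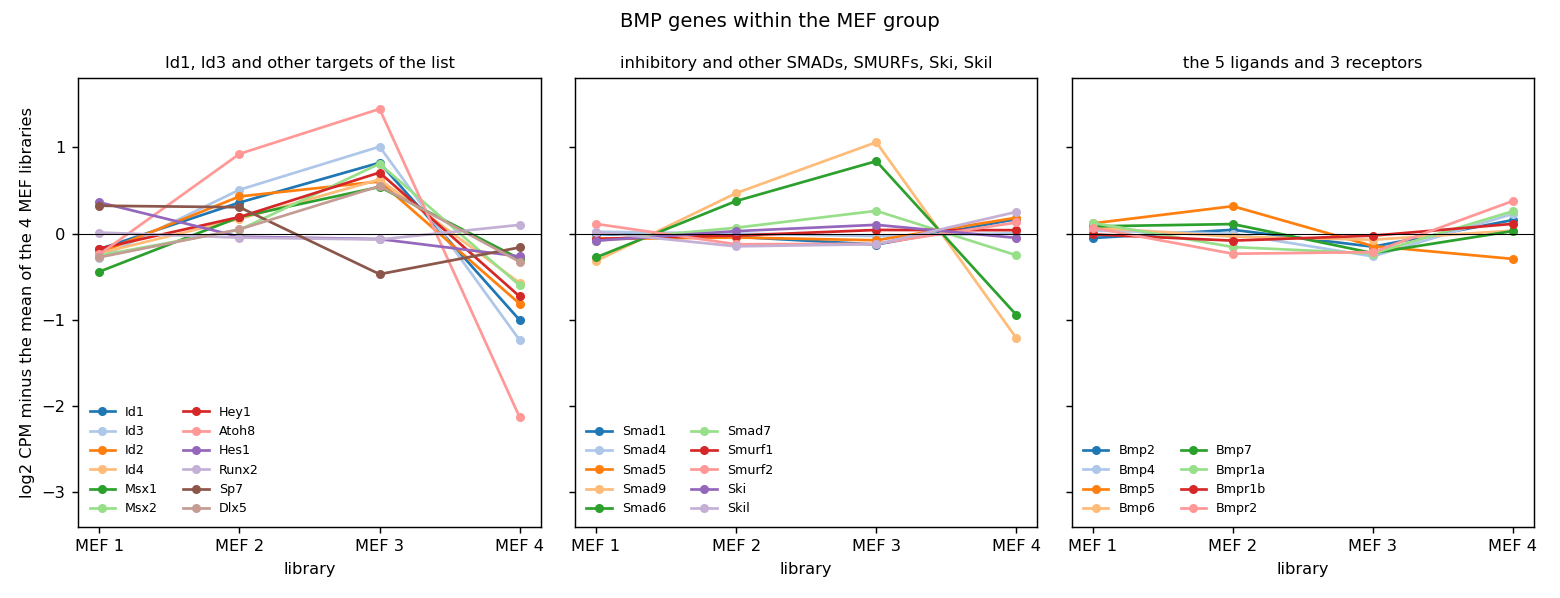
Log2 CPM of BMP pathway genes in MEF 1 to 4 (x axis), less the mean of those 4 libraries (y axis), for target genes (left), SMADs and their regulators (middle) and the 5 ligands and 3 receptors (right). Lines only link the points of a gene. Id1 and Id3 peak in MEF 3 and are lowest in MEF 4, where MEF 3 holds 3.54 and 4.74 times as much, while those 8 ligands and receptors lie in MEF 3 at 0.662 to 1.11 times MEF 4.

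The rest of the pathway was followed in a list of 55 further genes, of which 51 had enough reads to be tested. In muscle FAPs against lung FAPs 21 were higher, 10 lower and 20 did not pass, where 23.2% of all genes tested were higher and 25% lower. The median log2 fold change was 0.30 beside −0.037 over all genes tested. Scaled by library size alone 15 were higher and 19 lower. Against MEFs 26 were higher and 17 lower in muscle FAPs (21 and 24 with library size alone), beside 36.1% and 37.3% of all genes tested. The median there was 0.37 beside −0.041 over all genes. In lung FAPs against MEFs 21 were higher and 20 lower, beside 37.8% and 36.6% of all genes tested (median 0.13 beside 0.019). The list therefore moved both ways in each comparison.

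Of the 8 other ligands tested, 4 were higher in muscle than in lung FAPs (Bmp8a, Bmp8b, Gdf5 and Gdf6) and 1 lower (Bmp3). Of all genes tested 48.2% passed there in either direction, and 73.5% in muscle FAPs and 74.4% in lung FAPs against MEFs. Against MEFs 3 were higher (Bmp3, Gdf2 and Gdf10) and 4 lower (Bmp8b, Gdf5, Gdf6 and Gdf7) in muscle FAPs, and 3 higher and 5 lower in lung FAPs. Bmp3, a ligand that opposes bone formation, was lower in muscle FAPs, at 3.13 ± 1.66 CPM against 25.2 ± 7.02 in lung FAPs (log2 fold change −3.01 with SE 0.43, edgeR adjusted p = 3.77e-06). Gdf10, a close relative of Bmp3, was at 354 ± 85.3 CPM for muscle FAPs, 308 ± 61.9 for lung FAPs and 3.83 ± 1.02 for MEFs. Its log2 fold change against MEFs was 6.53 in muscle FAPs (edgeR adjusted p = 1.72e-11) and 6.33 in lung FAPs (edgeR adjusted p = 1.82e-11). Of the 9 other receptors and co-receptors, 4 were higher and 2 lower in muscle than in lung FAPs. Against MEFs, 7 were higher and 0 lower in muscle FAPs, and in lung FAPs 5 were higher and 1 lower (Acvr1). Rgma, a BMP co-receptor that also guides axons, was at 103 ± 2.33 CPM for muscle FAPs, 26.7 ± 9.94 for lung FAPs and 12.6 ± 0.507 for MEFs (1.95 in muscle FAPs against lung FAPs, edgeR adjusted p = 5.32e-06; 3.03 against MEFs, adjusted p = 3.59e-08). Acvrl1, the type I receptor known from endothelium, was higher in lung FAPs than in MEFs, at 203 ± 27.1 against 39.7 ± 11.2 CPM (log2 fold change 2.35 with SE 0.22, edgeR adjusted p = 7.56e-09). Acvrl1 stood at 227, 236, 191, 179 and 180 CPM in lung FAP 1 to 5. The 8 endothelial markers summed to 66.1, 765, 55.7, 253 and 94.2 CPM in the same libraries. Their part in the Acvrl1 level was not tested.

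Of the SMADs that carry the signal, Smad9 was lower in muscle FAPs, at 1.21 ± 0.514 against 4.37 ± 1.33 CPM in lung FAPs (log2 fold change −1.85 with SE 0.36, edgeR adjusted p = 0.00264). Smad1, Smad4 and Smad5 did not pass between the FAPs, with log2 fold changes of −0.15, 0.16 and −0.097 (edgeR adjusted p = 0.242, 0.101 and 0.367). Scaled by library size alone, Smad1 (−0.56) and Smad5 (−0.51) passed as lower in muscle FAPs. Against MEFs, Smad1 and Smad5 were higher and Smad6 lower in FAPs of both tissues. These were chosen after their values were seen, with log2 fold changes in muscle FAPs of 1.33 for Smad1, 0.83 for Smad5 and −1.16 for Smad6 (edgeR adjusted p = 2.94e-08, 6.93e-07 and 0.00541), and in lung FAPs of 1.48, 0.92 and −0.80 (edgeR adjusted p = 5.81e-09, 1.19e-07 and 0.0295). The lower Smad6 of lung FAPs no longer passed when lung FAP 1 or 3 or MEF 2 or 3 was left out (edgeR adjusted p = 0.0663 to 0.156). Smad9 was also lower in muscle FAPs than in MEFs, which held 7.53 ± 4.62 CPM (log2 fold change −2.64 with SE 0.57, edgeR adjusted p = 9.62e-05). Skil, a repressor of SMAD-driven transcription, was at 230.2 ± 28.3 CPM for muscle FAPs, 302 ± 57.7 for lung FAPs and 104 ± 13.7 for MEFs. It was higher in lung FAPs than in MEFs (log2 fold change 1.54 with SE 0.15, edgeR adjusted p = 1.66e-07), and its lower level in muscle than in lung FAPs (−0.39, edgeR adjusted p = 0.0337) no longer passed when muscle FAP 2, 4 or 5 or lung FAP 2 or 4 was left out (edgeR adjusted p = 0.0623 to 0.102) and stood at an adjusted p of 0.051 with limma-voom.

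Of the 10 other targets, 2 were higher in muscle FAPs than in MEFs (Msx1 and Hey1) and 5 lower (Id4, Msx2, Atoh8, Sp7 and Dlx5), and in lung FAPs 1 was higher (Hey1) and 6 were lower (Msx1, Msx2, Hes1, Runx2, Sp7 and Dlx5). Between the FAPs 4 were higher in muscle (Id2, Msx1, Hes1 and Runx2) and 1 lower (Atoh8). Of all genes tested 48.2% passed between the FAPs, and 73.5% in muscle FAPs and 74.4% in lung FAPs against MEFs. Runx2, a factor of bone formation, stood at 11.4, 10.4, 12.4 and 8.11 CPM in muscle FAP 2 to 5 and at 0, 1.88, 1.84, 1.30 and 0.391 CPM in lung FAP 1 to 5 (log2 fold change 3.29 with SE 0.99, edgeR adjusted p = 0.000427; with lung FAP 2 and 3 left out, 4.27, and with limma-voom 4.32). MEF 1 to 4 held more Runx2 than any FAP library, at 25.1, 24.1, 23.7 and 26.7 CPM, although muscle FAPs against MEFs did not pass. Msx2, a homeobox factor induced by BMPs in limb and skull, was at 0.410 ± 0.128 CPM for muscle FAPs, 0.329 ± 0.183 for lung FAPs and 18.0 ± 8.07 for MEFs. It was lower than in MEFs in muscle FAPs (log2 fold change −5.44 with SE 0.36, edgeR adjusted p = 5.60e-08) and in lung FAPs (log2 fold change −5.76 with SE 0.52, edgeR adjusted p = 1.22e-08; with lung FAP 2 and 3 left out, −6.37). Msx2 thus had the direction of Id1, and Id3 the opposite one, between FAPs and MEFs.

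**Figure D5:**
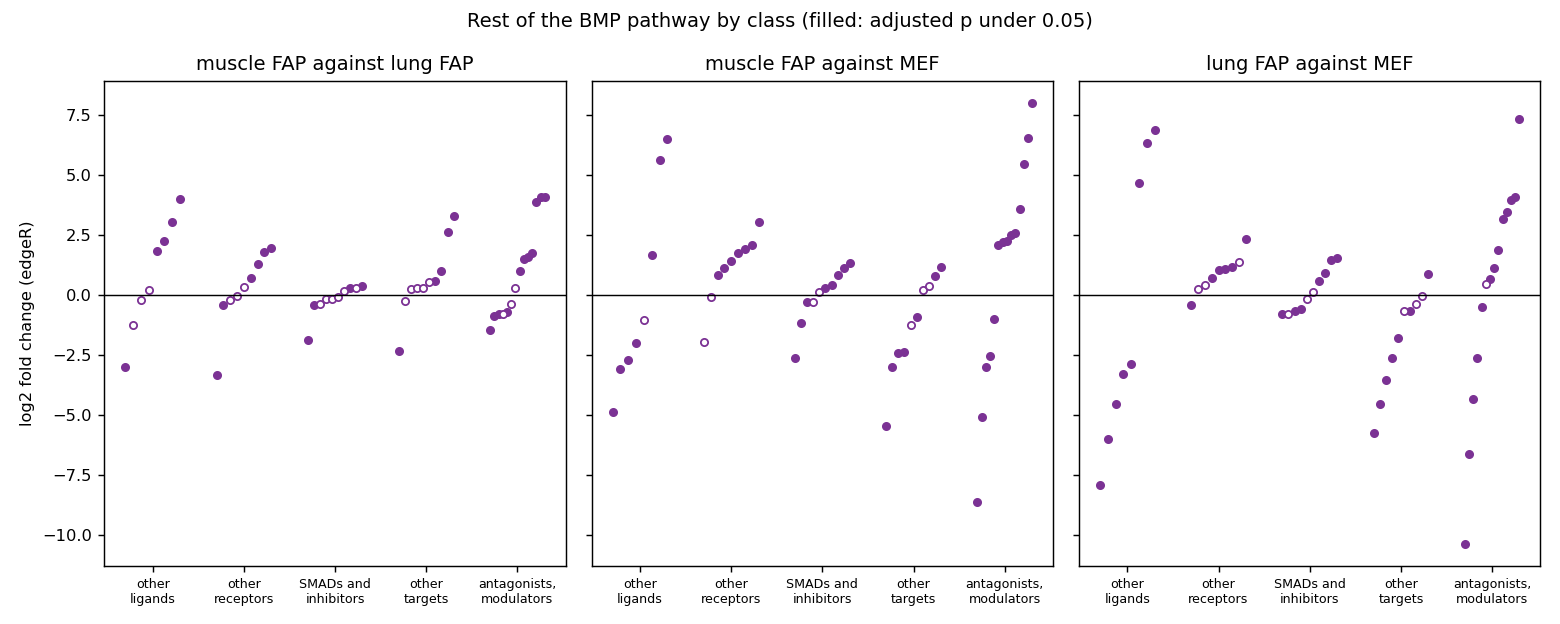
Log2 fold changes (y axis) of the tested genes of the pathway list by class (x axis) in the 3 comparisons, sorted within each class. Filled points passed at an adjusted p under 0.05. Grem1, a secreted antagonist, is the lowest point, at −10.36 in lung FAPs against MEFs, and Kcp, a modulator of BMPs, the highest, at 8.01 in muscle FAPs against MEFs.

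The genes most like each member over all 13 libraries were taken by Pearson's r of log2 CPM among the 10359 genes that averaged 5 CPM or more. The libraries fall into 3 groups, so these values mostly rank likeness of the group means and are given as a description. For Bmp2 they were Thbs4 (0.991), Col5a3 (0.990) and Smoc2 (0.989), the first of which encodes a matrix protein of tendon. For Bmp4 they were Taf7 (0.994), Sema6b (0.987) and Nmb (0.987), and for Bmp5 Adarb1 (0.996), Map3k5 (0.994) and Phactr2 (0.994). Bmp6 was most like Krt80 (0.978), Tmem136 (0.958) and Mme (0.957), and Bmp7 most like Enpp3 (0.996), C1ra (0.996) and Naprt1 (0.996). For the receptors they were Cwf19l2 (0.991), Dmxl2 (0.988) and Guf1 (0.988) with Bmpr1a, Paqr8 (0.971), Map9 (0.965) and Tmem164 (0.964) with Bmpr1b and Med13 (0.989), Kctd12 (0.989) and Qk (0.983) with Bmpr2. Id1 was most like Metrn (0.954), Znhit3 (0.944) and Smad6 (0.941), with the inhibitory SMAD of its own pathway among them. Id3 was most like Tubb2a (0.964), Acadvl (0.960) and Copz2 (0.960).

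Annotated exons on the opposite strand share bases with 4 of the 10 genes, Gm15217 with Bmp4, Gm26903 with Bmp5, Txndc5 with Bmp6 and Gm17110 with Bmpr1a. Whether counting used the strand is not given in the sources used here, so reads in the shared bases cannot be told apart.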

How the data were processed

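The files hold 1 deposited table of read counts per gene for the 13 libraries. The authors made these counts against mm10, and the submitters' processing notes name Bowtie2 2.1.0.0, HTSeq and edgeR; neither the annotation nor the use of strand is known from the sources used here. RNA was taken up in Trizol and cleaned on a column, per the labels' protocols.

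A single edgeR 4.0.16 fit (R 4.3.3, quasi-likelihood, robust, TMM scaling) covered the 13 libraries, with group as its factor, for the 15412 of 23418 genes that filterByExpr kept. p-values were adjusted by Benjamini-Hochberg over those genes. Levels are TMM-scaled CPM with the SD over a group, and the SE of a log2 fold change comes from log2 CPM with a prior count of 2. Exon lengths and positions are from GENCODE M21 on GRCm38, the build called mm10. The fit was also tested on simulated data.

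All 10 genes are reported for each comparison. From each class of the pathway list, the text takes the passing gene farthest from 0 in log2 fold change whose higher group averaged 5 CPM or more, and for each member the 3 genes most like it, passing over predicted symbols; other genes named were chosen after their values were seen. Members and lists were chosen with earlier results of these data known. Alternatives tried were DESeq2 1.42.0 size factors, upper quartiles or library size alone for scaling, no filter, a minimum of 5 CPM in 4 libraries, the DESeq2 Wald test, limma-voom (limma 3.58.1) with sample weights, fits to 2 groups only, a replicate block, and leaving out each library. Leaving out lung FAP 2 and 3 together was chosen after seeing the data. A gene of the pathway list is not reported here by name.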

Additional observations from a re-analysis of the deposited data

Results flagged for a closer look

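In lung FAP 2, Bmp5 stood at 128 CPM, far from the other 4 lung FAPs at 47.9 to 65.8 CPM: its gap to the next library made up 0.776 of the range of the group. Of 60 sets of libraries looked at (20 named genes in 3 groups) this was the 1 set with such a gap. Chance alone flags about 1 set in 20, so 1 flag among 60 sets is no more than chance would give. Among lung FAPs the same library also held the most endothelial transcript, at 765 CPM over 8 markers, and the most pericyte and smooth muscle transcript, at 1800.0 CPM over 8 markers. Their part in the Bmp5 level was not tested.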

How the results depend on the processing

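Of 30 values, for the 10 genes in 3 comparisons, 24 kept their direction and their side of the threshold under all 23 alternatives. With library size as the only scaling, which shifts the median log2 fold change of all genes by −0.41 in muscle FAPs against lung FAPs, −0.58 in muscle FAPs against MEFs and −0.17 in lung FAPs against MEFs, 8 of the 10 genes passed in muscle FAPs against lung FAPs in place of 5, Id3 there was at −0.32 and Bmpr2 in lung FAPs against MEFs at −0.048. Over all genes that scaling gave 1730 higher and 7455 lower in muscle FAPs against lung FAPs, beside 3574 and 3850 with TMM, and 3757 and 8089 beside 5570 and 5756 in muscle FAPs against MEFs. In muscle FAPs against lung FAPs 2 values that did not pass also turned sign with the libraries used. With each library left out in turn Id3 ran from −0.055 (without muscle FAP 3) to 0.21 (without muscle FAP 2), and it was −0.073 without lung FAP 2 and 3. Id1 ran from −0.28 (without lung FAP 3) to 0.11 (without lung FAP 2); the cause was not tested. Leaving out each library in turn, 5 to 5, 10 to 10 and 9 to 9 members passed in muscle FAPs against lung FAPs, muscle FAPs against MEFs and lung FAPs against MEFs, and 26 to 33, 39 to 46 and 39 to 44 genes of the pathway list. With the replicate number as a block the counts of members were 5, 10 and 9, and of the list 27, 39 and 42. Libraries with the same number shared little deviation (correlations of −0.048 to 0.061, and 0.017 to 0.061 between muscle and lung FAPs). Such values cannot tell whether a number marks a shared animal or batch, and the labels do not say. Of the likeness values, that of Id3 and Acadvl moved most, to 0.60 with library size only.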

Other observations

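Secreted antagonists and modulators of BMPs, a class of 16 genes of which 14 were tested, reached the largest fold changes of the pathway list. In muscle FAPs against lung FAPs 7 were higher (Nog, Grem1, Chrd, Bmper, Fst, Bmp1 and Kcp) and 4 lower, where 48.2% of all genes tested passed in either direction. Against MEFs 9 were higher and 5 lower in muscle FAPs, and 8 and 5 in lung FAPs, beside 73.5% and 74.4% of all genes tested in either direction. Bmper, which binds BMPs outside the cell, had the largest log2 fold change between the FAPs among genes of the class with at least 5 CPM, 4.10 (edgeR adjusted p = 1.88e-09), at 437, 391, 481 and 327 CPM in muscle FAP 2 to 5 and 32.7, 22.8, 15.3, 18.1 and 29.8 CPM in lung FAP 1 to 5. Grem1, an antagonist of BMP2 and BMP4 proteins, was at 0.449 ± 0.330 CPM for muscle FAPs, 0.132 ± 0.0290 for lung FAPs and 178 ± 17.3 for MEFs (log2 fold change −8.62 in muscle FAPs against MEFs, edgeR adjusted p = 9.83e-12, and −10.36 in lung FAPs against MEFs, adjusted p = 1.86e-12). Nog, which encodes the antagonist noggin, was at 2.20 ± 0.479 CPM for muscle FAPs, 0.128 ± 0.100 for lung FAPs and 12.7 ± 3.03 for MEFs (log2 fold change −2.53 in muscle FAPs against MEFs, edgeR adjusted p = 2.53e-05, and −6.62 in lung FAPs, adjusted p = 4.03e-09), and was chosen after its values were seen. Chrd, which encodes the antagonist chordin and was chosen in the same way, ran the other way, at 121 ± 12.5 CPM for muscle FAPs, 42.9 ± 12.5 for lung FAPs and 2.70 ± 0.867 for MEFs (log2 fold change 5.48 in muscle FAPs against MEFs, edgeR adjusted p = 3.97e-10, and 3.99 in lung FAPs, adjusted p = 5.21e-09). MEFs, with the least ligand transcript of the 5 members, thus held the most Grem1 and Nog and the least Chrd.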
